A study of Mus musculus with 8 samples.

Results

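Forelimb cells of wildtype mouse embryos were profiled by array, and the 4 arrays of these cells, of 8 arrays in the series, are described here for what the cells expressed and how closely the replicates agreed. The arrays were chosen by their titles, which name wildtype Bapx1 forelimb cells, and no array of the other genotype entered any value. The embryos were at E12.5 and of strain C57BL/6J;129. They carried the Bapx1 tm2.Tlu allele, in which EGFP follows an internal ribosome entry site in the 3' UTR of an intact Bapx1 (Nkx3-2), so that green cells mark the domain of the endogenous promoter. These embryos were heterozygous for the reporter allele. The other 4 arrays hold cells of Bapx1 null embryos, homozygous for an allele with EGFP placed after the start codon. Forelimbs were dissociated with enzymes and green cells were sorted by FACS. RNA of each sorted population was amplified and hybridized to an Illumina MouseWG-6 array. The study's methods call the 4 samples biological replicates. How many embryos each sample holds is not given in the sources used here.

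At this stage the limb bud holds mesenchyme that condenses into the cartilage models of the later bones. Sox9 drives the condensation and switches on cartilage collagens, Gdf5 marks the joints that will divide the condensations, and connective tissue, tendon and dermal precursors surround them. Muscle precursors, vessels, nerves and blood enter the bud from outside it, and ectoderm covers it. Bapx1, a homeobox factor best known for the axial skeleton and spleen, also has a domain in the limb, and the sorted cells were selected for it.

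A probe counted as detected when its detection value, which is 1 minus the detection p, exceeded 0.95 on all 4 arrays. This held for 18500 of 45281 probes, while 23059 were detected on none, and 2791 of the detected probes have no gene name here. At gene level 10287 of 19057 named genes were detected, or 54.0%, and each gene is read by its brightest detected probe. Counts of detected list members given below are to be set against this share. Values are log2 intensity after each array was shifted to a common median of the detected probes. The array medians ran from 58.5 to 70.4 on the linear scale, and 43.8% to 45.5% of probes were detected per array. The number of arrays limits the precision. Ranks are ranks of signal and not of RNA amount, since probes bind with different strength. The percentile of a gene is its place among the 10287 detected genes, where 100 is the brightest. In sorted populations, fewer cells of a type and less RNA per cell cannot be told apart.

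The label was checked first. Sox9, the factor that specifies cartilage, read 14.04, 14.08, 13.98 and 14.18 in replicates 1 to 4, which placed it at rank 41 of all detected genes and first among the transcription factors of the lists. With the mean of detected probes in place of the brightest, Sox9 lay below Tcf4 and Hoxd10. The replicates differed by 1.15-fold from lowest to highest. Its other probe read 11.07 ± 0.07 (SD, n = 4), so that the probes of Sox9 differ more from each other than the arrays do. Col1a1, the main collagen chain of bone and connective tissue, read 9.38, 9.61, 9.86 and 9.36 (percentile 65.2). Gdf5, the joint growth factor, read 9.40, 9.98, 9.71 and 10.17 (percentile 69.7). The 3 markers named for these cells were therefore all detected, and Gdf5 was the most variable of them with an SD of 0.33. Both probes of Nkx3-2 were at background on all 4 arrays, at 5.65 ± 0.17 and 5.60 ± 0.16 (SD, n = 4), although the sort rests on its promoter. Positions of the Nkx3-2 probes on the transcript were not analysed here.

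Genes of limb identity were dim apart from Tbx4. Tbx5, which forelimb buds need to form, was detected by 1 of 2 probes and read 6.72, 6.38, 6.68 and 6.58, at percentile 10.6. Tbx4, its hindlimb counterpart, was brighter by its own probe at 8.90 ± 0.18 (percentile 53.4), but its other probe exceeded the threshold on only 2 arrays. Probes of different genes cannot be set against each other as amounts. Pitx1, which directs hindlimb identity, was not detected on any array. Isl1, needed for hindlimb initiation, was barely above background at 6.26 ± 0.06 (SD, n = 4).

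Of the 100 brightest probes 45 have no gene name here, and the brightest of all, at 15.36, is one of them, so the ranking covers named genes only. The brightest named gene was Igf2, the fetal insulin-like growth factor, at 15.19, 15.33, 15.22 and 15.52. It was followed by Eef1a1, the elongation factor that brings transfer RNA to the ribosome, at 15.24 ± 0.13 (SD, n = 4). Mitochondrial CYTB read 15.18 ± 0.17 and ND4 15.10 ± 0.13, both subunits of the respiratory chain. Ribosomal protein genes made up 11 of the 25 brightest genes, headed by Rpl41 at 15.01 ± 0.12, and 24 of the 100 brightest. Genes encoded by mitochondria made up 4 and 5. Of the 8 detected mitochondrial genes 7 were highest on array 4, against 32.0% of all detected genes. The other growth genes among the 25 brightest were Mdk, the heparin-binding factor midkine, at 14.81 ± 0.11, Cdkn1c, an imprinted inhibitor of the cell cycle, at 14.75 ± 0.21, and Igfbp5, which binds insulin-like growth factors, at 14.50 ± 0.07. Tubb5, a tubulin, read 14.60 ± 0.14, and Hmgn2, which binds nucleosomes, 14.48 ± 0.15. The median gap between neighbours among the 100 brightest genes was 0.01, and the median SD of these genes over the arrays was 0.105. The spread of the difference between neighbours was not computed, so neighbouring ranks are not read as an order. The 100 brightest probes carried 12.4% of all signal and the 1000 brightest 42.2%. After the shift these 100 probes kept an offset between arrays. Their median deviations from the probe means were -0.067, 0.023, -0.050 and 0.105 on arrays 1 to 4. With quantile normalization they were -0.006, 0.018, -0.001 and -0.001. High values of the brightest genes on array 4 thus depend on the normalization.

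**Figure D1:**
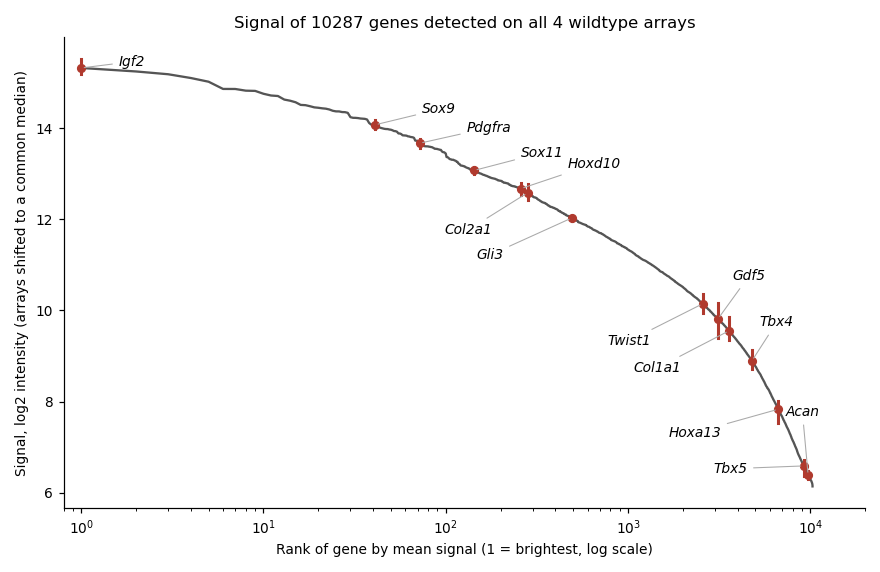
Mean signal of the 10287 genes detected on all 4 wildtype arrays (y axis, log2 intensity) against rank (x axis, log scale). Red points are named genes, with bars from the lowest to the highest array. Igf2 stands at rank 1 and Sox9 at rank 41, while Tbx5 and the cartilage proteoglycan gene Acan lie near the dim end.

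The start regions of detected genes differed in composition from those of undetected ones. In RefSeq windows of 250 bases before to 50 after the start (GRCm38.p6), 12655 genes of the array had a single window. The ratio of observed to expected CG pairs had a median of 0.785 over 6627 detected genes and of 0.244 over 5133 genes with no probe detected on any array, with GC contents of 61.3% and 49.7%. The motif TATAAA, searched on the strand of the gene and starting 40 to 20 bases before the start, stood in 1.21% of the detected and 5.12% of the undetected genes, and in 3% of all. Among the 62 of the 100 brightest genes that had a window, 4 held it. A match is a description of the letters, not a mapped site. The 5 brightest genes with the motif are shown in windows of 30 bases, capitals marking it, because they are the brightest matches in these cells.
H3f3b, chr11:116024514-116024543, minus strand: gtgcagcgtctcTATAAAtatggaggcgtc
Ppia, chr11:6415826-6415855, plus strand: gcccgaaccgggTATAAAggaagccgcggc
Zfp36l1, chr12:80113025-80113054, minus strand: cccaccaaatctTATAAAttgggctttgcg
H2ac22, chr13:21787264-21787293, minus strand: cttggagaatccTATAAAggccaagctcct
Jpt1, chr11:115514398-115514427, minus strand: ccctattggctcTATAAAatgggagtccgg
H3f3b, a histone variant of active chromatin, read 14.19 ± 0.04 (SD, n = 4) at rank 37, and Ppia, a prolyl isomerase, 14.11 ± 0.05. The genes Zfp36l1, H2ac22 and Jpt1 follow at ranks 55, 83 and 114, at 13.88 ± 0.09, 13.58 ± 0.18 and 13.28 ± 0.07. Zfp36l1 encodes an RNA-binding protein and H2ac22 a core histone.

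Of 43 patterning factors of limb mesenchyme with a probe, 34 were detected, or 79.1%, against 54.0% of all named genes, and 20 of them lay in the brighter part of the detected genes (percentile above 50). Tcf4, a basic helix-loop-helix factor, led them at 13.46 ± 0.10 (SD, n = 4), by its single detected probe of 3. Osr2, a zinc finger factor of joints and limb mesenchyme, read 12.67 ± 0.11. Both Gli factors that carry hedgehog signals in the bud were bright by 1 probe each, Gli2 at 12.07 ± 0.14 and Gli3 at 12.03 ± 0.05. The other probe read 7.07 for Gli2 and 6.52 for Gli3. Hic1, a marker of connective tissue precursors, read 11.26 ± 0.08. The general mesenchyme markers were all detected, with Twist1 at 10.15 ± 0.17, Prrx1 at 8.25 ± 0.20 and Msx1 at 8.09 ± 0.14. The 9 factors not detected on all arrays included 6 that were at background on every array.

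Chondrogenic factors were bright where detected. Their 10 detected members of 16 (62.5%) had a median percentile of 85.3. Beside Sox9, its partner Sox5 read 11.16, 11.64, 11.41 and 11.43. Sox6, which acts with Sox5, read 7.65 ± 0.08 by its single detected probe of 5. Zfp521, a zinc finger factor of early chondrocytes and osteoblasts, read 11.94 ± 0.10, and Trps1, a GATA-type repressor of growth plate and joint, 11.64 ± 0.44. That probe of Trps1 was high on arrays 1 and 3 (11.83 and 12.17) and low on arrays 2 and 4 (11.32 and 11.25), while a further probe read 11.53, 11.70, 11.78 and 11.46. Foxc1, a forkhead factor of skeletal precursors, read 10.91 ± 0.18. The factors of the SoxC group, which promote survival of mesenchymal precursors, were all detected, with Sox11 at 13.07 ± 0.06, Sox4 at 11.92 ± 0.13 and Sox12 at 11.80 ± 0.05. Of the Eya, Dach and sine oculis genes, 7 of 9 were detected. Six5 was the only one above percentile 50, at 10.02 ± 0.11, and Dach1 and Dach2 were at background on all arrays.

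**Figure D2:**
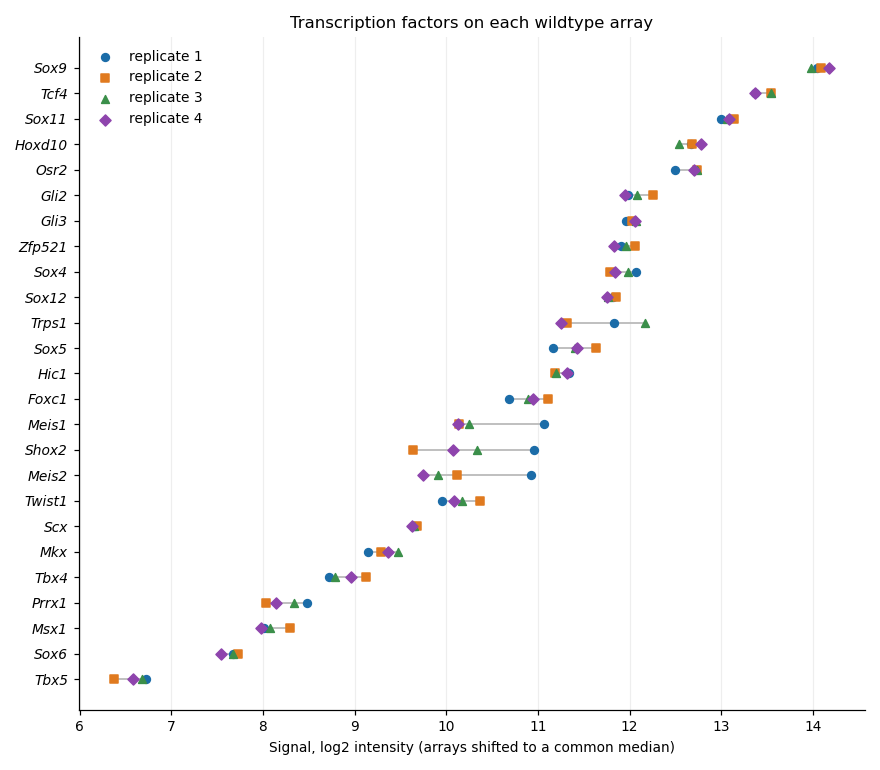
Signal of transcription factors (x axis, log2 intensity) on each wildtype array, 1 symbol per replicate, ordered by mean. Most factors have closely spaced symbols, as for Gli3 and Sox12, while Meis1, Meis2 and Shox2 stand apart on replicate 1; these 3 were added after their values were seen.

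Of 38 Hox genes with a probe, 22 were detected (57.9%), close to the 54.0% of all genes, and they differed by cluster. In the Hoxd cluster 7 of 9 genes were detected, with a median of 9.31, and in the Hoxa cluster 8 of 10, with a median of 8.06. In the Hoxb cluster 5 of 10 were detected, with a median of 6.87, and in the Hoxc cluster 2 of 9. Hoxd10, one of the genes that pattern the forearm and digits, was the brightest at 12.67, 12.69, 12.54 and 12.78 (rank 258). It was followed by Hoxd8 at 10.30 ± 0.07, Hoxd12 at 9.90 ± 0.23, Hoxc6 at 9.74 ± 0.18 and Hoxa5 at 9.64 ± 0.20. Hoxa11, a gene of the forearm, read 9.57 ± 0.07. Hoxa13, a gene of the future hand, read 7.84 ± 0.22, and Hoxd13, which acts with it, 6.68, 6.92, 7.16 and 7.18. Both probes of Hoxd11 were at background on all 4 arrays, as were those of Hoxa10. A probe at background does not show that a gene is silent: 3411 genes had a probe detected on all arrays and another that was detected on none.

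All 5 detected genes of the Hoxb cluster were highest on array 1. Hoxb4, a gene of more anterior axial levels, read 7.81 on array 1 against 6.43, 6.75 and 6.65 on arrays 2 to 4. Hoxb5 read 7.42 on array 1 against 6.73, 6.54 and 6.80, and Hoxb3 6.91 against 6.43, 6.42 and 6.41. In Hoxb2 the highest value was also that of array 1, at 8.39 against 7.63 to 7.93, and Hoxb7 read 6.66 against 6.44, 6.23 and 6.52. Apart from Hoxb2, these genes were dim on arrays 2 to 4, near the lowest level of a detected gene, 6.14. Hoxb3 was detected by 1 of its 4 probes. Array 1 thus lay above the others in each of these genes, and the same array was lowest for Hoxd13 and Hoxa13. Of the 22 detected Hox genes 8 were highest on array 1 (36.4%, against 17.1% of all detected genes), Hoxa2, Hoxa7 and Hoxd4 among them. Lowest on array 1 were 5 of the 22 (22.7%), fewer than the 38.8% of all detected genes.

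**Figure D3:**
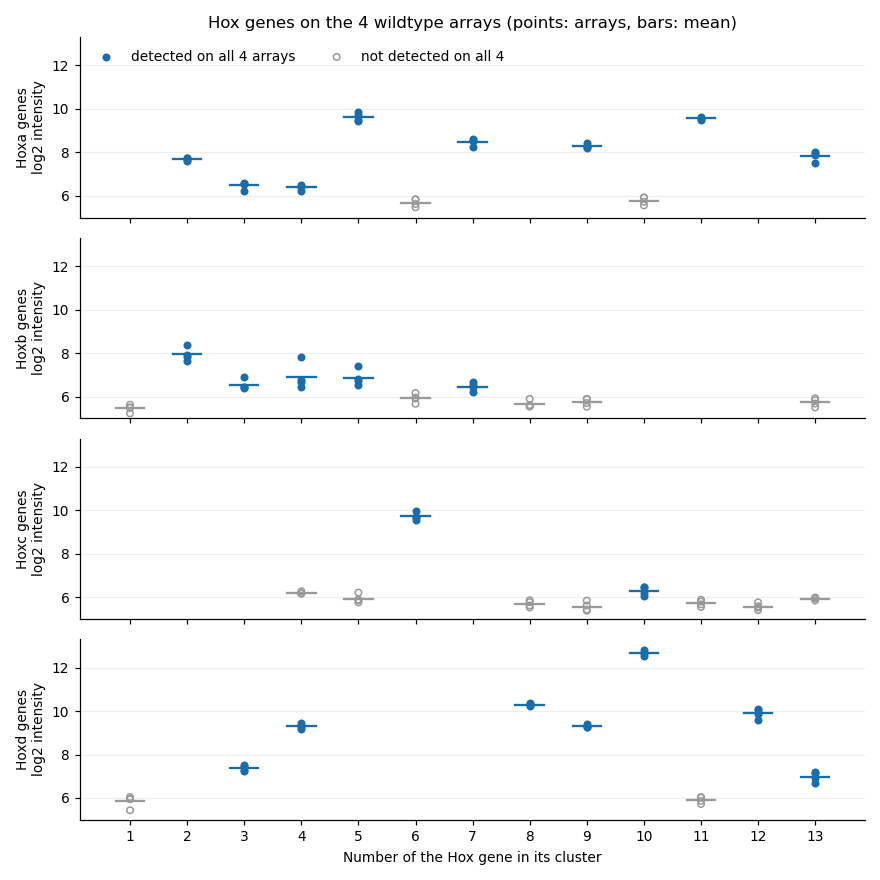
Signal of the 38 Hox genes with a probe (y axis, log2 intensity) by cluster (panels) and number (x axis), with 1 point per array and bars at the mean. Filled points are genes detected on all 4 arrays. Hoxd10 at 12.67 is the brightest, and Hoxb4 has a single array above the other points.

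Meis1, Meis2 and Shox2, factors of the proximal limb, were singled out after their values were seen and were highest on array 1, as Hoxb4 was. Meis1, which marks the segment next to the body wall, read 11.07, 10.14, 10.25 and 10.13, and Meis2 10.93, 10.11, 9.91 and 9.74. Shox2, required for the upper arm, read 10.96, 9.63, 10.34 and 10.07. Array 1 was highest in all of these, by 1.86-fold for Meis1, 2-fold for Meis2 and 1.93-fold for Shox2 over the mean of the others. All 8 detected probes of these 3 genes were highest on array 1. This place was not particular to proximal genes. Of the 34 detected patterning factors of limb mesenchyme 16 were highest on array 1 (47.1%), against 17.1% of all detected genes. Lowest there were 12 of the 34 (35.3%), against 38.8%. Of the 27 detected replication and mitosis genes 12 were highest on array 1 (44.4%) and 4 lowest. Meis1, Shox2 and Hoxb4 were also higher on both arrays 1 and 3 than on arrays 2 and 4, an order that many variable genes shared.

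Matrix genes were widely detected. Fibrillar and fibril-associated collagens had 16 of 17 members detected (94.1%), led by Col3a1, the collagen of loose connective tissue, at 13.47 ± 0.16 (SD, n = 4). The other probe of Col3a1 was dim, at 6.6. Col5a1, which sets fibril diameter, read 12.72 ± 0.09. Col2a1, the collagen that defines cartilage, read 12.43, 12.76, 12.54 and 12.60, and its 2 other probes were also bright, at 12.31 ± 0.16 and 11.79 ± 0.12. The cartilage collagen Col9a1 read 12.22 ± 0.11, and Col16a1, a fibril-associated collagen, 11.58 ± 0.17. The chains of type I collagen behaved differently: Col1a2 read 9.80, 11.25, 11.54 and 11.08, and array 1 lay 2.81-fold below the mean of the others. Col1a1 was low on array 1 and on array 4.

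Cartilage matrix genes were detected less widely than the collagens. Of 15 cartilage matrix genes with a probe 6 were detected (40%), against 54.0% of all genes, and 5 were at background on every array. Matn4, a matrilin, was the brightest at 11.59 ± 0.18, and Vcan, the large proteoglycan of the mesenchyme before it turns into cartilage, read 11.06 ± 0.11. Acan, the aggregating proteoglycan of mature cartilage, was near background at 6.31, 6.36, 6.41 and 6.47 (percentile 5.4), and its other probe read 6.25 ± 0.13. Comp, a glycoprotein of cartilage and tendon, read 7.15 ± 0.35, Mia, a secreted protein of chondrocytes, 9.67 ± 0.23, and Matn2, another matrilin, 6.53 ± 0.10. Col10a1, the collagen of hypertrophic cartilage, was not detected on any array.

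Basement membrane and other collagens had 13 of 14 members detected, with Col26a1 at 12.38 ± 0.06, Col6a1 at 12.14 ± 0.18 and Col4a1, the main collagen of basement membranes, at 11.10 ± 0.09. Small leucine-rich proteoglycans, glypicans and syndecans had 16 of 19. Gpc3, a heparan sulfate proteoglycan that limits growth signals, led them at 13.98 ± 0.08 (rank 47), followed by Gpc1 at 12.48 ± 0.12. Dcn, the collagen-binding proteoglycan decorin, read 12.01, 11.74, 12.44 and 11.80, and Ogn 11.71 ± 0.06. Among 24 of 27 detected glycoproteins and fibre genes, Mfap2, a microfibril protein, read 12.89 ± 0.17, Tgfbi 12.25 ± 0.20 and Fbln1, a fibulin, 11.86 ± 0.14.

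Genes that process collagen and cut the matrix were widely detected. Collagen processing had 14 of 15 members detected. Serpinh1, the chaperone of procollagen, read 13.72 ± 0.08 (rank 69), and P4hb, a subunit of prolyl hydroxylase, 12.74 ± 0.05. Bmp1, which cleaves the ends of procollagen, read 12.54 ± 0.16. In this group 11 of the 14 detected genes were lowest on array 1, while 38.8% of all detected genes were. Of the proteases and their inhibitors 17 of 19 were detected and 6 of the 17 were lowest on array 1, with Mmp2, a gelatinase, at 12.22 ± 0.15, Mmp14, which activates Mmp2, at 11.91 ± 0.11, and the inhibitor Timp2 at 11.87 ± 0.08.

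Signalling genes were read by ligand and receptor. Of 27 Wnt ligands and receptors 18 were detected (66.7%). Wnt5a, the noncanonical ligand of limb outgrowth, was the only ligand among the 5 brightest at 12.17, 12.05, 11.86 and 11.81, and the other 4 were receptors. Ryk read 11.67 ± 0.11, Fzd7 10.90 ± 0.07, Fzd2 10.61 ± 0.08 and Fzd1 10.54 ± 0.05. Of the Wnt antagonists, modulators and targets 11 of 19 were detected (57.9%), near the 54.0% of all named genes. Sfrp2, a secreted Wnt binder, read 12.67, 12.86, 13.05 and 13.02 and was lowest on array 1. Rspo3, which amplifies Wnt signals, read 10.18 ± 0.10, and Dkk3 9.83 ± 0.34.

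Among BMP genes, 3 of the 5 brightest were receptors. The list had 19 of 23 members detected (82.6%) and a median percentile of 75. Bmpr1a, the main type I receptor of limb mesenchyme, read 12.09 ± 0.15, Bmpr2 11.91 ± 0.08 and Acvr2b 10.90 ± 0.09. Other detected probes read 8.20 for Bmpr1a, and 6.69 and 6.69 for Bmpr2. Smad1, which passes the signal to the nucleus, read 11.13 ± 0.10. Gdf10 was the brightest ligand at 11.29 ± 0.10. The members not detected on all arrays were Gdf6, Gdf11, Bmp2 and Smad9. Of the antagonists of BMP and activin, 7 of 13 were detected (53.8%), near the share of all genes. Fstl1, a follistatin-like protein, read 12.20 ± 0.21, Twsg1, which binds BMP and chordin, 12.09 ± 0.03, and Nbl1 10.27 ± 0.09. Grem1, the antagonist that links the apical ridge to the posterior bud, read 9.58, 9.24, 9.65 and 9.25, and Chrd 9.14 ± 0.10.

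Of the TGF-beta genes 8 of 9 were detected, and Tgfb1 was not. Tgfbr1 read 12.32 ± 0.12, the signal transducer Smad3 12.27 ± 0.16 and Tgfbr2 11.99 ± 0.11. Tgfb2, a ligand that tendon precursors need, read 10.91, 10.26, 10.93 and 10.41, with arrays 1 and 3 above arrays 2 and 4. Of the hedgehog genes 5 of 10 were detected (50%), near the 54.0% of all named genes, and none of them was a ligand. The signal transducer Smo read 9.86 ± 0.04, the co-receptor Cdon 9.82 ± 0.25 and the receptor Ptch1 8.94 ± 0.09. Sufu, which restrains the Gli factors, read 8.66 ± 0.11, and Hhip, which binds and holds the ligand, 6.79 ± 0.33. Shh, the ligand of the posterior bud, Dhh, Gas1 and Boc were at background on all arrays, and Ihh was detected on 1.

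Of the FGF genes 12 of 18 were detected (66.7%). The share was 75% in the retinoic acid list and 61.1% in the Notch list, against 54.0% of all named genes. Fgfr2, the receptor whose splice forms serve both limb layers, read 12.28, 12.71, 12.49 and 12.54, and Dusp6, a phosphatase induced by FGF signals, 12.34 ± 0.14. Other detected probes of Fgfr2 read 7.51 and 6.2. Fgf10, the ligand that mesenchyme sends to the ridge, read 9.92 ± 0.10. The retinoic acid list had 12 of 16 detected, with the receptor Rxrb at 10.76 ± 0.13 and the binding proteins Crabp1 at 10.10, 10.33, 10.36 and 10.76 and Crabp2 at 10.23 ± 0.10. The Notch list had 11 of 18 detected, with Hey1, a target factor, at 10.51 ± 0.08, Notch1 at 10.33 ± 0.05, Notch3 at 9.54 ± 0.06, the ligand Jag1 at 9.53 ± 0.12 and Hes1 at 9.44 ± 0.09. The Notch list had the steadiest summed signal of the signalling lists, with 1.02-fold between its highest and lowest array.

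Growth genes of the insulin-like and imprinted group were the brightest signalling list, with 19 of 23 detected, a median percentile of 89.7 and 9 members in the brightest 10%. Beside Igf2, Cdkn1c and Igfbp5, Mest read 14.08 ± 0.05 and Dlk1, a transmembrane relative of Notch ligands, 14.07 ± 0.05. Grb10, an adaptor that restrains growth, read 14.02 ± 0.02, so that these 3 imprinted genes were tight by their brightest probes. The other detected probe of Dlk1 had an SD of 0.17. Not all imprinted genes were tight. Cdkn1c had an SD of 0.21, and Peg3, among the 100 most variable genes, 0.49. Igfbp3, which binds insulin-like growth factors, read 11.79, 10.54, 10.53 and 10.38, so that array 1 lay 2.47-fold above the mean of the others, and its SD fell from 0.66 to 0.09 without array 1. Of the guidance and adhesion genes 29 of 33 were detected (87.9%). The chemokine Cxcl12 read 13.22 on array 1 and between 12.97 and 13.01 on the others. The ephrin Efna5 read 12.40 ± 0.20, the Slit receptor Robo1 12.24 ± 0.22, Sema3f 11.65 ± 0.18 and Epha7 11.35 ± 0.28.

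The skeletal lineages other than cartilage were represented unevenly. Of 15 joint interzone genes 11 were detected, the brightest being Sfrp2, Trps1 and Vcam1, an adhesion molecule at 10.86 ± 0.10. Several of these are widely expressed in mesenchyme, and of the defining interzone genes Gdf5 was detected by both probes while Erg and Wnt9a were at background on all arrays. Of 12 tendon genes 10 were detected. Scx, the factor that defines tendon precursors, read 9.66, 9.68, 9.64 and 9.63, with an SD of 0.02, and Mkx 9.32 ± 0.14, while the later tendon gene Tnmd was at background. Kera, a leucine-rich proteoglycan of tendon and cornea, read 9.39 ± 0.13. Of 13 bone and hypertrophic cartilage genes 6 were detected (46.2%), near the 54.0% of all named genes. Phex read 9.13 ± 0.17, Mef2c 8.42 ± 0.48, Pth1r, the receptor of parathyroid hormone, 8.09 ± 0.09, and Sp7, the osteoblast factor, 7.39 ± 0.16.

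Some markers of cells that enter the limb were detected too. The detected shares were 65.2% for muscle, 72.2% for endothelium, 50% for Schwann cells and 33.3% for neurons, against 54.0% of all named genes. Over the detected members only, median percentiles were 34.7 for muscle, 48.3 for Schwann cells and 60.6 for neurons. Of 23 muscle genes 15 were detected, with Myl1, a myosin light chain, at 10.59 ± 0.08 and Actc1, an actin of young muscle, at 9.79 ± 0.09. Acta1, the actin of skeletal muscle, read 8.07 ± 0.11 and the muscle factor Myog 6.50 ± 0.13. The defining precursor factor Pax7 was at background on every array and Myod1 was detected on 1. Of 18 endothelial genes 13 were detected, with a median percentile of 28.3. Egfl7 read 9.17 ± 0.18, Cdh5, which joins endothelial cells, 7.39 ± 0.07 and Pecam1 6.52 ± 0.14, and Kdr was at background. Of 12 Schwann cell and neural crest genes 6 were detected. Sox10, the factor of the lineage, read 8.24 ± 0.16, and Foxd3 was at background. Of 15 neuronal genes 5 were detected (33.3%), and 10 were at background on every array. Map2 was bright by 1 of its 9 probes, at 11.49 ± 0.10, and Stmn2 read 7.15 ± 0.22, while the defining genes Elavl3 and Isl2 were at background. In the pericyte list 7 of 11 were detected (63.6%). Pdgfra, which is also a general receptor of mesenchyme, was at 13.67 ± 0.08 (rank 72), and Acta2 at 10.84 ± 0.09, while Rgs5 was at background.

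Platelet genes stood out among the blood lists. Of 16 with a probe 15 were detected (93.8%). Pf4, a chemokine of platelet granules, read 13.27, 12.48, 12.55 and 12.41 and lay at rank 254 of all genes. Ppbp, another granule chemokine, read 11.19, 10.31, 10.13 and 10.23, and Itga2b, the platelet integrin, 8.01, 7.60, 7.37 and 7.83. Array 1 was the highest in 14 of the 15 detected platelet genes, against 17.1% of all detected genes. The summed signal of the list was 22812 on array 1 and between 13212 and 13606 on the others, a ratio of 1.7 over their mean. Without array 1 the SD of Pf4 fell from 0.40 to 0.07. No defining platelet marker was at background.

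Macrophage genes moved the same way. Of 19 with a probe 15 were detected, and 13 of these were highest on array 1. Their summed signal was 5169 on array 1 and between 3481 and 3899 on the others. Lyz2, a lysozyme of macrophages, read 8.92, 7.99, 8.06 and 8.12, Adgre1, a surface receptor of macrophages, 8.08, 7.58, 7.47 and 7.57, and Csf1r, the receptor for their growth factor, 7.37, 7.07, 7.14 and 7.21. Array 1 was therefore the highest in each of the defining macrophage markers. The leukocyte genes Ptprc and Spi1 were at background on every array. The part of blood cells in the values of other genes on array 1, the Meis and Hoxb genes included, was not tested.

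Some globins varied most of all. Hbb-y, the embryonic beta globin, read 12.57, 11.77, 9.31 and 11.55, a range of 9.56-fold. Hba-x, the embryonic alpha globin, read 9.22, 8.15, 6.51 and 8.19, and Hba-a1 11.35, 10.41, 9.26 and 10.79. Other beta globins varied less and were high on array 1, with array 3 close to arrays 2 and 4. Hbb-bs read 10.43, 9.86, 9.77 and 9.93 (1.58-fold), and Hbb-bt 10.01, 9.22, 9.11 and 9.30 (1.86-fold). Of 17 erythroid genes with a probe 10 were detected (58.8%), near the 54.0% of all named genes. Of these 10 genes 8 were highest on array 1 and 8 were lowest on array 3, against 17.1% and 24.9% of all detected genes. The summed signal of the 17 genes was 14183, 8676, 4306 and 8478, or 3.29-fold between highest and lowest. Klf1, the factor of red cell precursors, was near background at 6.38 ± 0.20, and Alas2, which starts heme synthesis in them, was detected on 1 array. RNA of related beta globin genes can bind the same probe, so the single globins are uncertain.

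Ectodermal signal was low and uneven. Of 17 epidermal and ridge genes 10 were detected (58.8%), near the 54.0% of all named genes, with a median percentile of 13.9. Krt14, the keratin of basal epidermis, read 9.62, 9.01, 8.20 and 9.62. Epcam was at background on all arrays, and Trp63 was detected on 3. The summed signal ran from 1583 on array 3 to 2398 on array 4. In 8 of the 10 detected genes array 3 was the lowest, while 24.9% of all detected genes were lowest there. Array 3 was thus the array with least signal of both red cells and epidermis, though not of these lists alone. Its summed signal was also the lowest for muscle (5311, against 5903 to 6103). The same held for Schwann cells and neural crest (4057, against 4195 to 4488). Among detected Hox genes 10 of 22 were lowest on array 3.

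**Figure D4:**
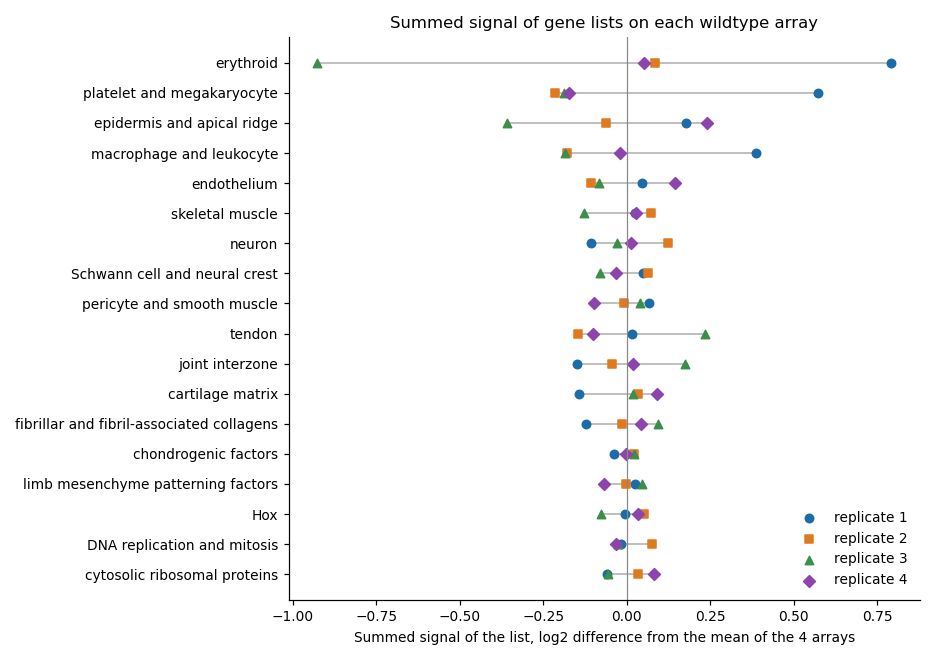
Summed signal of gene lists on each wildtype array, as the log2 difference from the mean of the 4 arrays (x axis), with 1 symbol per replicate. The erythroid list spans 3.29-fold and the platelet list stands high on replicate 1 alone, while the chondrogenic, Hox and ribosomal lists span 1.04-fold to 1.1-fold. A sum follows its brightest members, such as Sox9 and Hoxd10. Single genes of these lists can span more, as Hoxb4 (2.6-fold) and Trps1 (1.89-fold) do.

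Genes of growth and metabolism were broadly detected. Of 30 replication and mitosis genes 27 were detected (90%). Mcm4, part of the replicative helicase, read 13.01 ± 0.08, Cenpa, the histone of the centromere, 12.67 ± 0.12, and Ccnd1, a cyclin of the G1 phase, 12.10 ± 0.19. The brightest probe of Mcm6, another helicase subunit, read 11.03 on array 1 against 12.20, 12.15 and 12.25 on the others. Its 3 other detected probes were not low on array 1, the next brightest reading 10.96, 10.78, 10.93 and 10.74. All 16 glycolysis genes were detected, with Tpi1 at 12.87 ± 0.21 and Gapdh at 12.49 ± 0.04. Of 23 immediate early genes, which rise when cells are handled, 17 were detected and 4 lay above percentile 50. Egr1 read 10.67, 10.57, 11.13 and 10.60, Jun 9.52 ± 0.20 and Fos 8.20, 8.84, 8.65 and 8.35. Sex-linked genes of both kinds were detected on every array. Xist, the RNA of the inactive X chromosome, read 11.82, 10.64, 12.02 and 11.28. The Y-linked Eif2s3y read 10.35, 10.53, 10.08 and 10.15, Kdm5d 8.26 ± 0.23 and Uty 6.87 ± 0.11.

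The replicates agreed closely over all detected probes. Pearson correlations across the 18500 probes, which are not independent replicates, ran from 0.9896 for arrays 1 and 2 to 0.9955 for arrays 2 and 4. Spearman correlations ran from 0.9835 to 0.9923, lowest and highest in the same pairs. Between 0.0541% and 0.627% of probes differed by more than 2-fold in a pair. The SD of a gene over the 4 arrays had a median of 0.12 (log2), and 8902 genes, or 86.5%, lay under 0.2. The spread fell with brightness, from a median of 0.137 in the dimmest of 5 equal groups of probes to 0.107 in the brightest. Only 43 genes had an SD above 0.5.

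**Figure D5:**
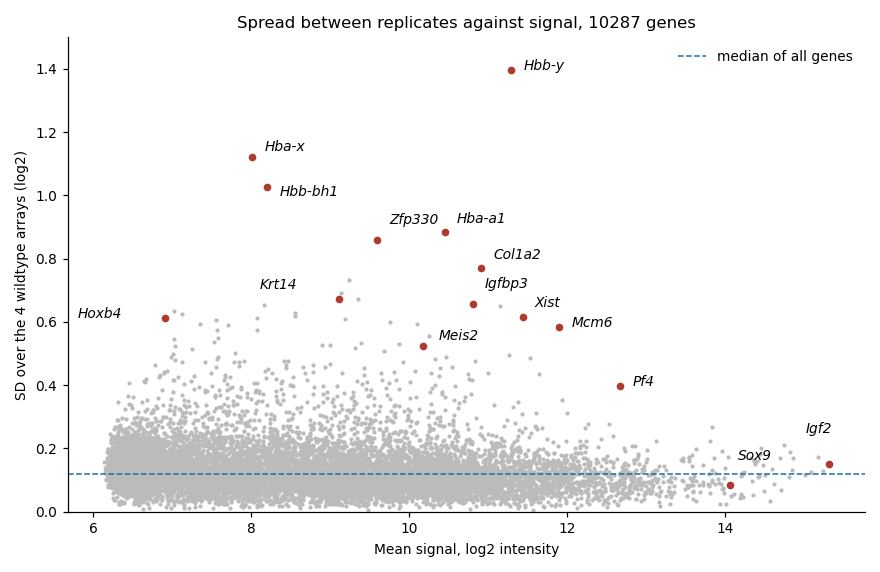
SD over the 4 wildtype arrays (y axis, log2) against mean signal (x axis, log2 intensity) for the 10287 detected genes, with named genes in red and the median as a dashed line. Hbb-y has the largest SD at 1.40, and Sox9 lies below the median at 0.08.

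The genes that varied most fell into a few patterns. The 15 most variable were Hbb-y, Hba-x, Hbb-bh1, Hba-a1, Zfp330, Col1a2, Chd1, Tbc1d20, Krt14, Chodl, Igfbp3, Zc3h13, Prrc2c, Selp and Syne2, with SDs from 1.40 down to 0.63. Selp, the P-selectin of platelets and vessels, read 7.96 on array 1 and 6.54 to 6.84 on the others, like the platelet genes. Chodl, which encodes a C-type lectin domain, went the other way at 8.63, 9.01, 10.13 and 9.68. Chd1, a chromatin remodeller, read 10.14 and 9.54 on arrays 1 and 3 and at most 8.69 on the others by its brightest probe, and Prrc2c 11.71, 10.22, 11.41 and 11.28, both higher on arrays 1 and 3 than on 2 and 4. Of the 100 most variable genes 64 showed this last order, and 4 the reverse. Over all detected genes the shares were 13.2% and 35.7%. The 64 genes had a median span of 54.0 kb in the genome, against 23.6 kb over 10278 detected genes with a span (GRCm38.p6). Arrays 1 and 3 were also those of higher overall intensity before the shift, at medians of 70.4 and 64.7 against 60.7 and 58.5, and the part of RNA quality and array brightness in this order was not tested.

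How far the level of a gene rests on its probe was read from 3787 genes with 2 or more detected probes. Their brightest and dimmest detected probes differed by a median of 1.55 (log2), or 2.93-fold, and the 90th percentile of this difference was 16.7-fold. Sox9 is such a gene, with probes at 14.07 and 11.07, and Gdf5 another, with probes at 9.82 and 7.85. Cxcl12 and Col26a1 read 13.05 and 12.38 by their brightest probes, and 6.82 and 6.66 by their dimmest detected ones. The order of arrays was shared between the probes of Gdf5, where array 1 was lowest and array 4 highest in both.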

How the data were processed

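RNA of 4 wildtype samples was measured on 1 array each, and 4 null arrays were used only to pair the rows of the deposited tables. The authors deposited probe intensity on a linear scale, made in GenomeStudio, whose version no source used here gives. The methods name background subtraction, but the deposited intensity holds no value below 27.9 on the wildtype arrays, so it was taken as not subtracted. The detection value deposited beside it, a fraction from 0 to 1, rises with brightness and was read as 1 minus p. Processed log2 values deposited by the authors were used for an alternative and to name probes: all 45281 rows paired by their differences between arrays (largest distance 1.1e-06, next-best row 0.0064). An annotation table names 1 gene for 34885 probes and several for 18, left unnamed. Columns of other series were 0.

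Log2 intensity was shifted per array by the median of the probes detected on all 4 arrays (detection value above 0.95), with no other normalization. Alternatives used quantile normalization and nec of limma 3.58.1 in R 4.3.3 with an offset of 16, and a threshold of 0.99. Other steps used Python 3.11.15, and the steps were tested on simulated data. No genotype was compared and no p-value was computed. Named genes are Nkx3-2, the markers, limb identity genes, the 25 brightest and 15 most variable genes, up to 5 brightest detected members and the defining members of each list, Hox and sex-linked genes, and members of small groups; others are said to be chosen later. Of 758 list genes 706 had a probe. Members and lists were chosen with earlier results of these data known.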

Additional observations from a re-analysis of the deposited data

Results flagged for a closer look

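In 18 of 258 named genes tested, the value of a single array lay far from the other 3. The gap made up more of the range than Dixon's limit, which chance passes in about 1 in 20. The genes tested include the 15 picked for the largest SD over these arrays, and members of the blood lists moved together. The count of flags therefore cannot be set against that share. Array 1 was high in Igfbp3 (share of the range 0.886), the platelet genes Pf4 (0.843), Ppbp (0.834) and Tubb1 (0.889), the lysozyme genes Lyz1 (0.954) and Lyz2 (0.861), Hoxb3 (0.960) and Cxcl12 (0.835). It was low in Mcm6 (0.916), where it read 11.03 against a median of 12.20 on the others; the 3 other detected probes of Mcm6 were not low on array 1. Array 4 was high in Gm6548 (0.903) and the mitochondrial ATP6 (0.891), at 14.71 against 14.37. Array 3 was high in Phex (0.849) and Eya4 (0.830) and low in Klf1 (0.853). Array 2 was high in Ets1 (0.910), at 10.71 against 10.24, and low in Zc3h13 (0.857), Hoxa3 (0.864) and Abcc9 (0.832), a potassium channel subunit of pericytes. Of these genes 9 stood apart on array 1, and the causes were not tested.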

How the results depend on the processing

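No paired analysis was possible because a single group was described and no groups were compared. Of the 100 brightest genes 62 remained when a gene was read by the mean of its detected probes. The median SD of detected probes was 0.122, and 0.233 with the intensity as deposited and no shift. At a detection threshold of 0.99 the hindlimb list had 1 detected member in place of 2. Agreement between arrays, as the lowest pairwise correlation, was 0.9896, 0.9923 over all probes and 0.9897 to 0.992 when an array was left out. Probes detected on all wildtype arrays numbered between 18683 and 18856 when an array was left out. Percentiles of named genes moved by a median of 5.6 points with the mean of the probes, most for Map2 (46.9 points), whose place rests on 1 probe, and by over 10 points in 65. The other settings moved no count of detected probes or list members by over 1.5 times. Dim genes near the detection limit, such as Tbx5, Isl1 and Acan, and unnamed probes limit what can be read.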

Other observations

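A pair of genes had a probe that followed the most variable globins while the other probe of the gene did not. The brighter probe of Zfp330 read 10.49, 9.87, 8.44 and 9.61 on arrays 1 to 4, and its other probe 9.36, 9.07, 9.19 and 9.05. A probe of Sparc, the matrix protein osteonectin, read 11.07, 10.31, 9.11 and 10.81, with array 1 highest and array 3 lowest as in Hba-a1. The brightest probe of Sparc read 10.77 ± 0.06 (SD, n = 4), and a further probe of the gene 8.83, 8.28, 8.81 and 8.49. Both genes were singled out after their values were seen.

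Among genes outside the lists, Gdnf, a growth factor for nerve cells, read 8.98, 7.97, 7.70 and 7.67, with array 1 highest as for Hoxb4, and Lrrc15 read 6.88 on array 1 and at least 7.72 on the others, lowest on array 1 as for Col1a2. Both were singled out after their values were seen.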
